A study of Homo sapiens with 9 samples.

Results

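Genes that set or mark airway epithelial identity, 9 of the 20136 protein-coding genes of the annotation, were followed across the histone methylation islands of BEAS-2B cells. They were chosen by name rather than by a value, although earlier results of these data were known. They are the transcription factors TP63, NKX2-1, GRHL2, ELF3, EHF and SPDEF, the adhesion molecule EPCAM, the secreted protein SCGB1A1 and the anion channel CFTR. BEAS-2B is a virally immortalized line of human bronchial epithelial cells. H3K4me3, H3K27me3, H3K9me3 and H3R8me2a were profiled by ChIP-seq in WT cells and in cells without mdig (also mina53, gene RIOX2), with 1 library for each mark and genotype, and 1 WT input that has no islands of its own. Both genotypes had gone through the same CRISPR-Cas9 procedure and were kept in blasticidin: the WT cells kept normal mdig protein and the KO cells had lost it. Both the WT and the KO cells came from colonies, so a difference between genotypes and a difference between colonies cannot be told apart. With 1 library for each condition no value has an error and no test was possible.

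The airway epithelium is renewed from basal cells, which give rise to club (secretory), goblet, ciliated and ionocyte cells, and each step is driven by a small set of transcription factors. H3K4me3 marks active or poised promoters, H3K27me3 is laid down by Polycomb on silent developmental genes, and H3K9me3 marks heterochromatin. H3R8me2a, the asymmetric dimethylation of an arginine of histone H3, is less well characterized. Cultured lines often keep only part of the epithelial programme, and promoters that hold H3K4me3 together with H3K27me3 are called bivalent.

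Each deposited island is an interval, on a grid of 200 bp, in which reads were enriched over background, with no height. The value of a gene is therefore the length in kb of its body and the 5 kb upstream that islands covered, and its promoter is the 2 kb on each side of the start. A gain needed at least 2 times the WT length and at least 1 kb more in KO, a loss the opposite. An island on part of the cells cannot be told apart from an island on all of them. The KO tracks covered more of the genome than the WT tracks for all 4 marks, by 1.15 times for H3K4me3, 1.33 times for H3K27me3, 3.69 times for H3K9me3 and 1.61 times for H3R8me2a, and each count is read against the share of all coding genes called by the same rule. RIOX2 itself carried H3K4me3 in both genotypes (3 kb and, without mdig, 3.8 kb), and islands do not check the edit. Of 10 markers of bronchial epithelium 6 had promoter H3K4me3 in both genotypes (60%), KRT8 and KRT18 among them. The shares of all coding genes were 67.2% in WT and 66.7% in KO. KRT5, KRT19, CLDN4 and TP63 had none. All 11 mesenchymal markers, 1 of 8 leukocyte markers (CD14) and 2 of 6 endothelial markers (KDR and SOX17, with PECAM1 unmatched in the annotation) had promoter H3K4me3 in WT and in KO, as did the 4 repressors of epithelial genes ZEB1, ZEB2, SNAI1 and SNAI2. ZEB1, ZEB2 and SNAI2 are in the mesenchymal list too, and EPCAM, ELF3 and TP63 of the bronchial list are among the 9 genes. H3K4me3 thus lay on promoters of both epithelial and mesenchymal genes, with the bronchial share below that of all coding genes. Over the gene regions 4 of the 8 leukocyte and 2 of the 6 endothelial markers gained H3K4me3, beside 4.10% of coding genes. So did 1 mesenchymal (COL1A1) and 1 bronchial marker (CLDN4). It was lost by 1 endothelial (CDH5, 1.8 to 0 kb) and 1 mesenchymal marker (PDGFRB), beside 2.04%. H3R8me2a was on 9 of 11 mesenchymal promoters in WT and 6 in KO. It was on 5 and 6 of the 10 bronchial and 0 and 1 of the 8 leukocyte promoters, beside 28.4% and 36.3% of coding genes, and on 0 endothelial promoters in both. The part of such shifts in the other results was not tested.

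The promoters of the 9 genes differ in their density of CpG dinucleotides, which is shown first because H3K4me3 followed it over all coding genes. The 200 bases upstream of the canonical start (the start of the MANE Select or Ensembl canonical transcript) are printed 5′ to 3′ from the plus strand of GRCh37, with each CpG in capitals, for 2 genes whose start lay in a H3K4me3 island in both genotypes and whose CpG content differed (CFTR at chr7:117119879-117120078 and ELF3 at chr1:201979515-201979714).
CFTR: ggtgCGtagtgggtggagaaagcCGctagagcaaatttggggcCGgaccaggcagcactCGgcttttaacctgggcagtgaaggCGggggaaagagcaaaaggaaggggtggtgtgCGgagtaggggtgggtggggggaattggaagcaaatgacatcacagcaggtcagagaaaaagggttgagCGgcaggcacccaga
ELF3: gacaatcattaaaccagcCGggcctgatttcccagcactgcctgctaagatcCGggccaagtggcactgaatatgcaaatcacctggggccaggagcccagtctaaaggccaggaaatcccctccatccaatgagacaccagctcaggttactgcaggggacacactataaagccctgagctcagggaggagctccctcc

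These windows held 7 CpG in CFTR and 2 in ELF3. Over the 500 bases on each side of the start, the observed number of CpG was 0.902 of that expected from base composition in EPCAM, 0.676 in CFTR, 0.645 in GRHL2 and 0.559 in NKX2-1. It was 0.365 in TP63, 0.271 in ELF3, 0.191 in SPDEF, 0.123 in EHF and 0.0796 in SCGB1A1. The median of all coding promoters was 0.723, so EPCAM alone of the 9 stood above it. At or above a ratio of 0.5, 87.3% of 14375 coding promoters had H3K4me3 in WT, as did 3 of 4 of these genes, and GRHL2 did not. Below it 17.0% of 5761 had H3K4me3, as did 1 of 5, ELF3, which was the CpG-poor exception.

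**Figure D1:**
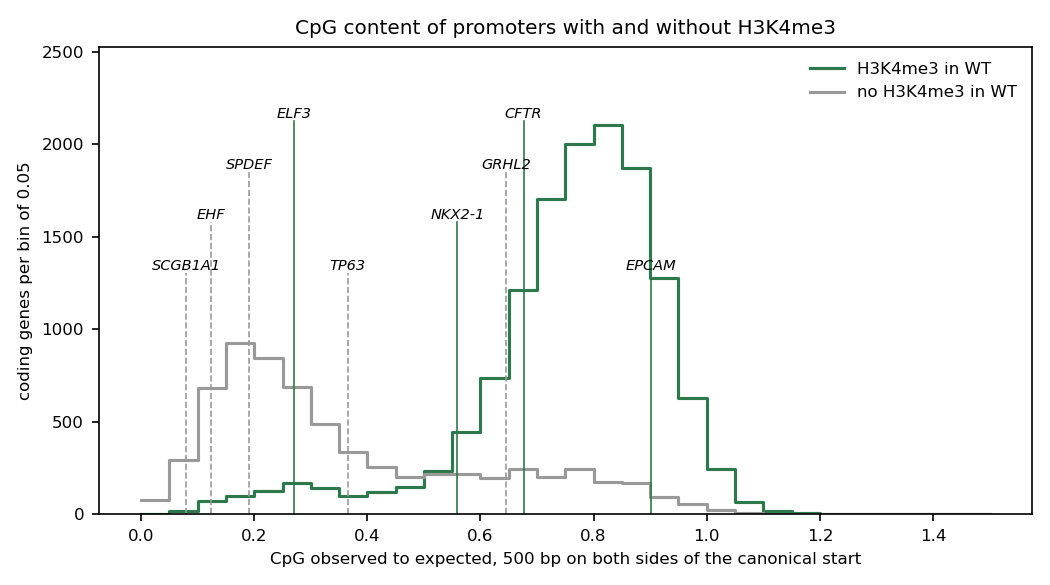
Histogram of the ratio of observed to expected CpG within 500 bases of the canonical start, for coding promoters with and without H3K4me3 in WT, with the 9 genes marked (full lines with H3K4me3 in WT, broken lines without). EPCAM lay at 0.902 and SCGB1A1 at 0.0796, and promoters with H3K4me3 had a median of 0.786 and those without 0.284.

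Short motifs of factors that act on epithelial genes were searched on both strands from 250 bases before to 50 after the canonical start. CACCTG, the E-box core bound by ZEB and SNAI repressors, occurred in GRHL2 (1 match), ELF3 (1) and EPCAM (3), or 3 of the 9 genes beside 20.5% of all coding promoters. AACCGGTT, bound by grainyhead factors, occurred in 0 of 9 and 0.154% of all, and CCGGAAGT, an ETS site, in 0 of 9 and 6.10% of all. TATAAA occurred upstream of the start of ELF3, at -34 to -29, and of SCGB1A1, and on the opposite strand after the start of TP63, beside 9.81% of all. A match of letters is no evidence of binding.

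H3K4me3 lay at the canonical promoter of 4 of the 9 genes in WT, NKX2-1, ELF3, EPCAM and CFTR, and of the same 4 in KO. Over all coding genes the shares were 67.2% in WT and 66.7% in KO. H3K27me3 lay on the NKX2-1 promoter alone in both genotypes, against 20.5% and 21.5% of coding genes. H3K9me3 was on 0 of the 9 promoters in WT and on 3 in KO (NKX2-1, GRHL2 and EHF), with shares of 2.67% and 11.0% over all genes, and 8.42% in KO alone. H3R8me2a was on the ELF3 promoter in WT and on those of ELF3, SPDEF and SCGB1A1 in KO, with shares of 28.4% and 36.3%, and 13.4% in KO alone. No island of any mark lay on 5 of the promoters in WT (TP63, GRHL2, EHF, SPDEF and SCGB1A1), beside 19.8% of coding genes, and on TP63 this held in KO as well, beside 16.1%. At the 5′ end of the gene record the counts were the same except for CFTR, whose record starts far upstream, so that H3K4me3 was on 3 of 9 in each genotype. At record starts H3K4me3 was on 64.7% of coding genes in WT and 64.4% in KO, and the like pairs were 20.3% and 21.4% (H3K27me3), 2.86% and 11.1% (H3K9me3), and 27.5% and 35.2% (H3R8me2a). Of the 3983 coding promoters with no island in WT, 76.0% had none in KO, 9.14% had H3K9me3 alone and 4.39% H3R8me2a alone.

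Over the body and 5 kb upstream no gain or loss of H3K4me3 was called among the 9 genes, where 4.10% of coding genes gained and 2.04% lost. H3K27me3 was gained by 1 gene (GRHL2, beside 6.49% of coding genes) and none lost it (3.29%). H3K9me3 was gained by 5, TP63, NKX2-1, GRHL2, EHF and CFTR, beside 27.6% of all coding genes, and none lost it (0.874%). H3R8me2a was gained by 2, SPDEF and SCGB1A1, beside 20.0%, and none lost it (8.04%). Long genes met the rule more often: 52.5% of coding genes with a region of at least 100 kb gained H3K9me3 and 21.7% of shorter ones, and the 9 divide into 3 of 3 long genes (TP63, GRHL2, CFTR) and 2 of 6 shorter ones (NKX2-1, EHF). The median difference in H3K9me3 was 4.2 kb over the 9 genes and 0 over all, and it was 0 for the other marks in both. At least 1 mark was gained by 7 of 9 genes and by 46.4% of all. Of the 9, 0 gained both H3K9me3 and H3R8me2a, as 6.24% of all coding genes did. ELF3 and EPCAM had neither gain. With the KO tracks scaled to the total length of WT, 4 of the 9 gained H3K9me3 (not TP63), 2 H3R8me2a and 0 H3K27me3. Over canonical transcripts with scaling 2 gained H3K9me3, GRHL2 and EHF, since NKX2-1 then had 0.985 kb and CFTR 0.487 kb in KO. Over all coding genes this scaling turned 5549 gains and 176 losses of H3K9me3 into 2703 and 1606, and 4025 and 1618 of H3R8me2a into 3271 and 2331. For H3K27me3 it turned 1307 and 663 into 991 and 795, and for H3K4me3 825 and 410 into 546 and 511.

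**Figure D2:**
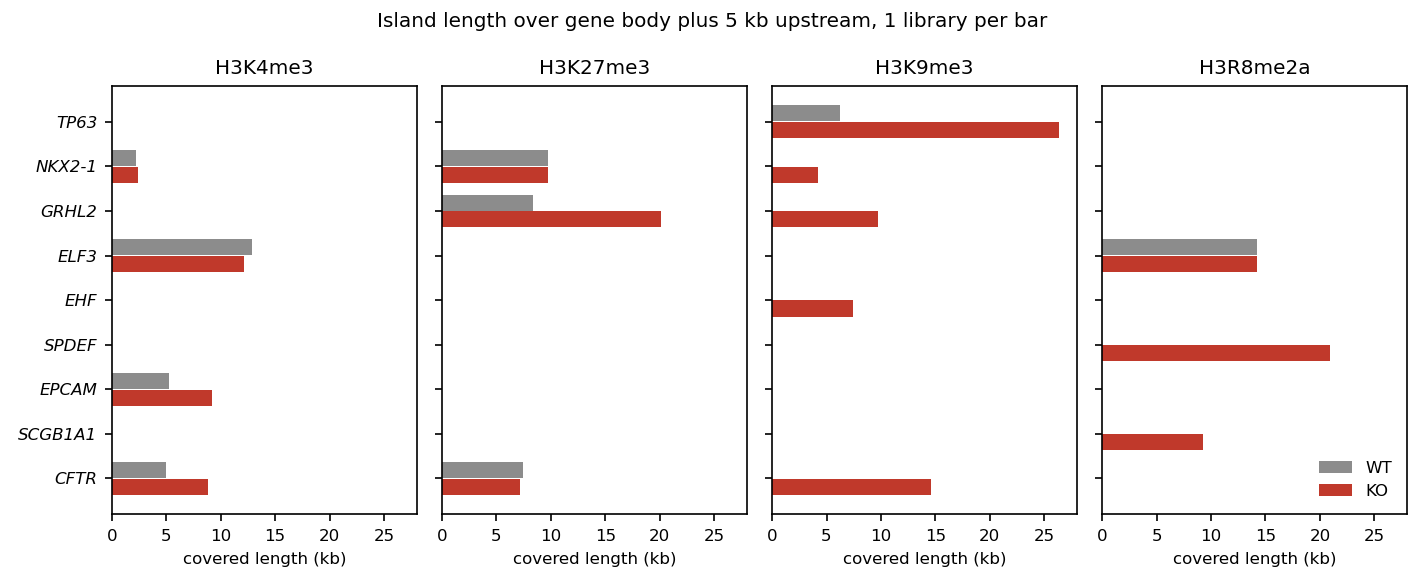
Bars give the length in kb covered by islands of each of the 4 marks over the body and 5 kb upstream of the 9 genes, WT in grey and KO in red, 1 library each and no error. H3K9me3 grew in TP63 (6.2 to 26.4 kb), NKX2-1, GRHL2, EHF and CFTR, and H3R8me2a in SPDEF and SCGB1A1.

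TP63 (ENSG00000073282.14), the basal cell regulator, lies on chromosome 3 from 189349178 to 189615065, plus strand (hg19, as for all positions given), and spans 270.9 kb with its 5 kb upstream. No H3K4me3, H3K27me3 or H3R8me2a island lay on it in WT or KO. Its H3K9me3 grew from 6.2 kb (WT) to 26.4 kb (KO), 2.29% and 9.75% of the region. The WT islands, 2.4 and 3.8 kb long, sat in intron 3, which holds the start of the ΔN forms that basal cells make. In KO intron 3 held 3 islands of 6, 5 and 0.8 kb, and further islands of 5 kb in intron 4 and 9.6 kb over exons 6 to 10 appeared where WT had none. Both starts, the TA start and the ΔN start 158 kb downstream, had no island of the 8 tracks within 2 kb. The nearest H3K4me3 was 484 kb from the start in WT and 371 kb in KO, so the basal regulator had no promoter mark in this bronchial line. Scaling each mark's tracks to the same total length left a difference of 0.947 kb and no gain.

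NKX2-1 (ENSG00000136352.20), the lung lineage factor, lies on chromosome 14 from 36985597 to 36990354 on the minus strand. Its promoter was bivalent in WT, and in KO H3K9me3 also reached into the promoter window. H3K4me3 went from 2.2 kb (WT) to 2.4 kb (KO), and with scaling the difference turned to -0.113 kb. A single H3K27me3 island covered the whole region in each genotype, 26.6 kb long in WT and 27.4 kb without mdig. H3K9me3 was at 0 kb in WT and 4.2 kb in KO, 43.0% of the region, as 1 island from 36990801 to 36995000, upstream of the gene and under H3K27me3 in both genotypes. The nearest WT H3K9me3 island was 686 kb away. The KO island touched the promoter window over 0.637 kb and the gene body not at all. It lay beside H3K4me3, with 0 kb under H3K4me3 of either genotype. Of the 1483 coding promoters with H3K4me3 and H3K27me3 alone in WT, 4.11% had H3K4me3, H3K27me3 and H3K9me3 in KO, as NKX2-1 did. The islands were shared with SFTA3, which starts beside NKX2-1. The 2 coding genes nearest in the 8 covered shares were HOXC11 (distance 0.103) and WFDC2 (0.107), a developmental factor and a secreted protein.

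GRHL2 (ENSG00000083307.12), which holds epithelial enhancers open and represses ZEB1, lies on chromosome 8 from 102504667 to 102681954, plus strand. No H3K4me3 was found on it in WT or KO. H3K27me3 went from 8.35 kb (WT) to 20.2 kb (KO), at its 3′ end in both. WT had 2 islands and KO 3, from exon 14 to the last of its 16 exons. H3K9me3 went from 0 kb in WT to 9.75 kb. A 4.6 kb island covered the start and exon 1, filling 91.7% of the promoter window, and a 7.4 kb island covered exon 16 and lay wholly inside the last KO H3K27me3 island. The GRHL2 promoter, with no mark in WT, thus carried H3K9me3 over most of its window in KO. Of coding promoters with neither H3K4me3 nor H3K9me3 in WT, 17.0% of 6410 had H3K9me3 in KO and 7.74% over at least 3 kb, and of the 5 such genes here GRHL2 and EHF had it. Among promoters with H3K4me3 in WT these shares were 4.58% and 0.614%. The H3K27me3 gain ended with a factor of 3, within 5 kb of the start, and with the libraries scaled, where the difference was 6.76 kb.

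**Figure D3:**
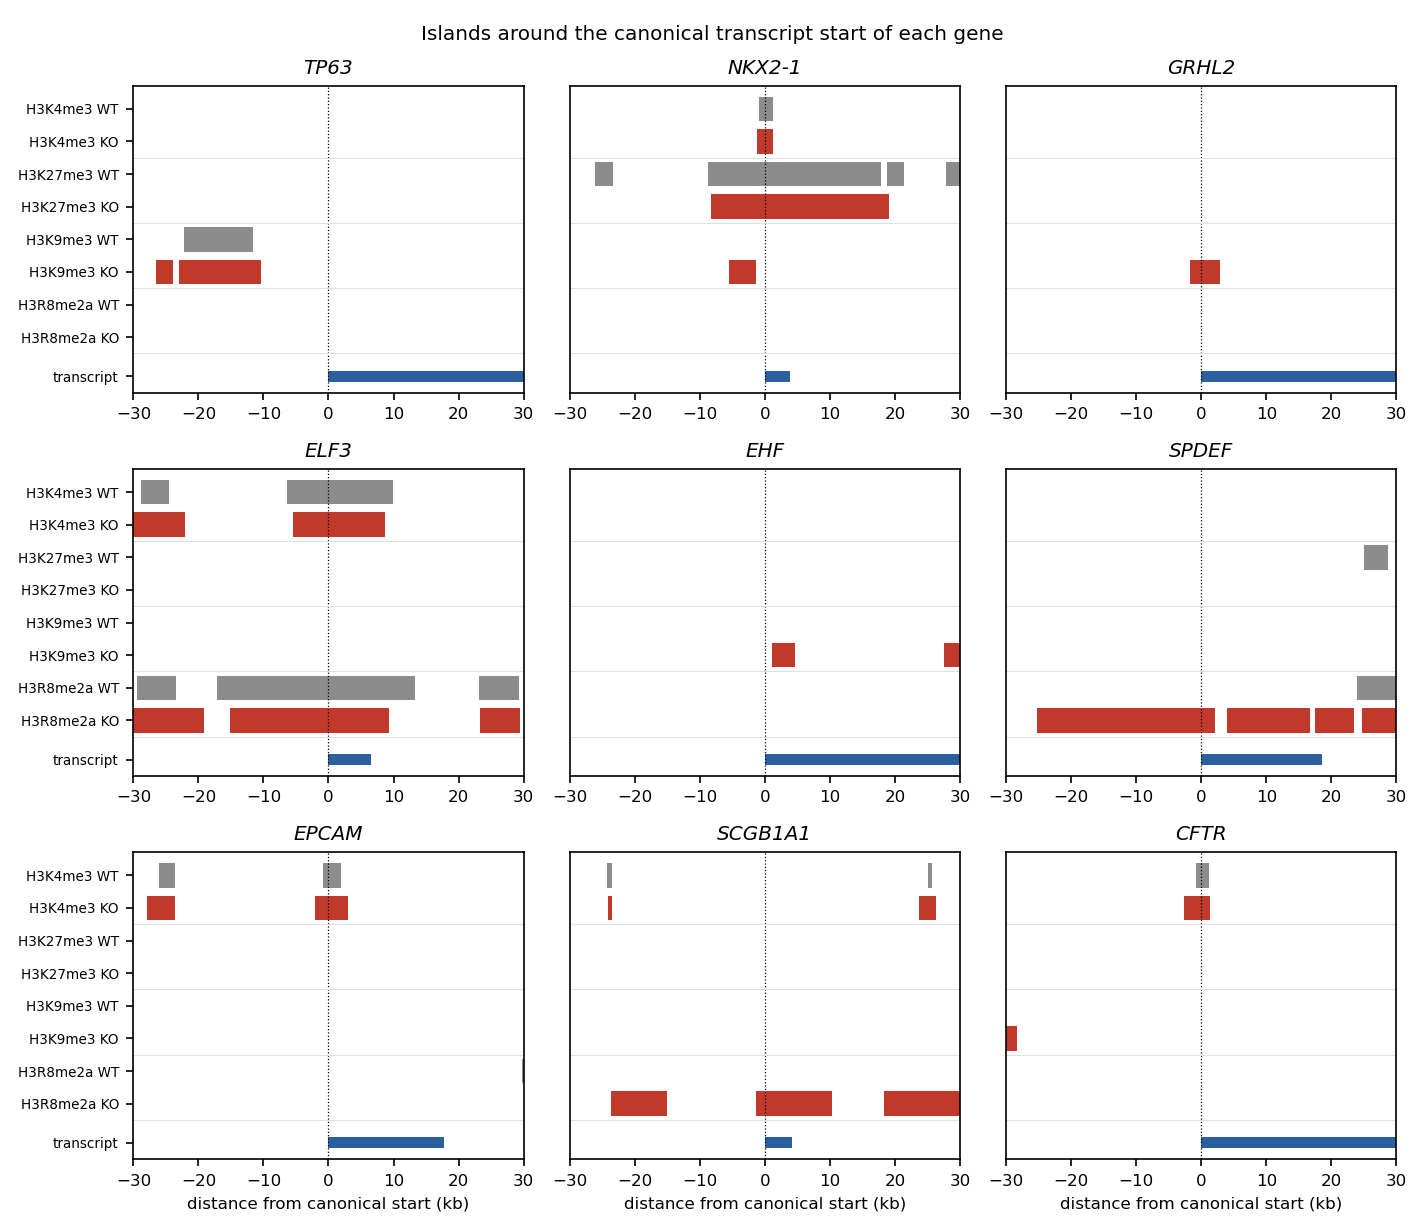
Islands of the 8 tracks around the canonical start of the 9 genes, by distance from it in kb along the transcript (blue), WT in grey and KO in red. The GRHL2 start had H3K9me3 in KO alone, SPDEF and SCGB1A1 H3R8me2a in KO alone, and the NKX2-1 start H3K4me3 and H3K27me3 in both.

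ELF3 (ENSG00000163435.16), an epithelial ETS factor, lies on chromosome 1 from 201977073 to 201986311, plus strand, and was the most heavily H3K4me3-covered of the 9 genes. H3K4me3 took up 12.9 kb (90.7%) of its region in WT and 12.1 kb (85.1%) without mdig, from islands of 16.2 and 14.2 kb. These were broad, since 98.6% of WT and 96.5% of KO islands of the mark were of that length or shorter. H3R8me2a covered all 14.2 kb of the region in both genotypes, from islands of 30.4 kb in WT and 24.4 kb in KO. No H3K27me3 or H3K9me3 lay on ELF3, and the nearest H3K9me3 was 238 kb away in WT and 237 kb in KO. Promoters with H3K4me3 and H3R8me2a alone made up 25.9% of coding genes in WT, and 78.3% of them kept that state in KO. Nearest in the 8 shares were TRIM47 (distance 0.0345) and TP53INP2 (0.0345). RNPEP shared its islands.

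EHF (ENSG00000135373.13), an ETS factor of the same subfamily as ELF3, lies on chromosome 11 from 34642640 to 34684835, plus strand, and had no island of any mark in WT. In KO 7.4 kb of H3K9me3 lay on it, 15.7% of the region: 3.4 kb in intron 1, which began 1.16 kb downstream of the start, and 4 kb over exons 4 to 6. Of its 5 groups of transcript starts, 3 had H3K9me3 within 2 kb in KO. The nearest H3K4me3 was 180 kb away in WT and 177 kb in KO. ELF3 and EHF, both epithelial ETS factors, thus stood apart in both genotypes: ELF3 with H3K4me3 and H3R8me2a, EHF with neither.

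SPDEF (ENSG00000124664.11), the ETS factor of goblet cells, lies on chromosome 6 from 34505579 to 34524110, minus strand, and also had no island over body and upstream in WT. In KO it gained H3R8me2a, 0 kb in WT and 20.9 kb in KO or 89.0% of the region, in islands of 6, 12.8 and 27.4 kb. The longest covered the start, and the whole promoter window. H3K4me3, H3K27me3 and H3K9me3 were at 0 in both genotypes. The nearest WT H3R8me2a island was 23.9 kb from the start, and the 100 kb on each side held 12.6 kb of it in WT and 66 kb in KO, while H3K27me3 there went from 6.4 kb to 0. PACSIN1 shared 1 of the islands.

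SCGB1A1 (ENSG00000149021.7), the club cell secretoglobin, lies on chromosome 11 from 62172575 to 62190667, plus strand. No island of any mark covered it in WT. In KO it carried 9.29 kb of H3R8me2a, 40.2% of the region. An 11.6 kb island covered its canonical start and all 3 exons, and filled 82.6% of the promoter window. The 100 kb on each side rose from 0 to 51.4 kb of H3R8me2a, and from 0 to 6.8 kb of H3K9me3. H3R8me2a came without H3K4me3 here and at SPDEF: of coding promoters without WT H3R8me2a, 6.31% of those lacking H3K4me3 in WT had H3R8me2a in KO, and 28.6% of those with H3K4me3.

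EPCAM (ENSG00000119888.11), the epithelial cell adhesion molecule, lies on chromosome 2 from 47572297 to 47614740, plus strand, and had H3K4me3 and no other mark. H3K4me3 went from 5.2 kb (WT) to 9.2 kb (KO), short of 2 times. The island over the canonical start grew from 2.8 to 5 kb (1.79 times), and 92.4% of coding promoters with H3K4me3 in both genotypes had a ratio no higher (quartiles 0.944 and 1.33). A further island lay on an upstream start 24.2 kb away and grew from 2.4 to 4.2 kb. No H3K27me3, H3K9me3 or H3R8me2a covered the gene in either genotype. H3K9me3 within 100 kb was 2 kb in WT and 0 in KO, which was the only fall among the 9.

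CFTR (ENSG00000001626.18), the chloride channel of airway epithelium, has a gene record on chromosome 7 from 116927174 to 117356025, plus strand, which reaches far upstream of the canonical transcript (117120079 to 117308719). Over the record the lengths in WT and KO were 5 and 8.8 kb for H3K4me3, 7.4 and 7.2 kb for H3K27me3, and 0 and 14.6 kb for H3K9me3. Of the 5 KO H3K9me3 islands 4 lay upstream of the canonical transcript and 1, 1.8 kb long, in intron 15. Over the canonical transcript and 5 kb upstream, H3K4me3 grew from 2 to 4 kb, a gain by the rule (4.06% of coding genes over canonical transcripts). H3K9me3 went there from 0 to 1.8 kb, also a gain (25.1%), and H3K27me3 was at 0. With scaling, the KO lengths there were 3.48 and 0.487 kb, and neither was a gain. The 4 kb KO island was 2 times the WT one over the canonical start, a ratio that 95.2% of promoters did not exceed. WNT2 shared H3K4me3, H3K27me3 and H3K9me3 islands with the record and ASZ1 shared 1 H3K9me3 island. The nearest genes in the 8 shares were TENM3 (distance 0.00791) and RIPOR2 (0.0131).

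**Figure D4:**
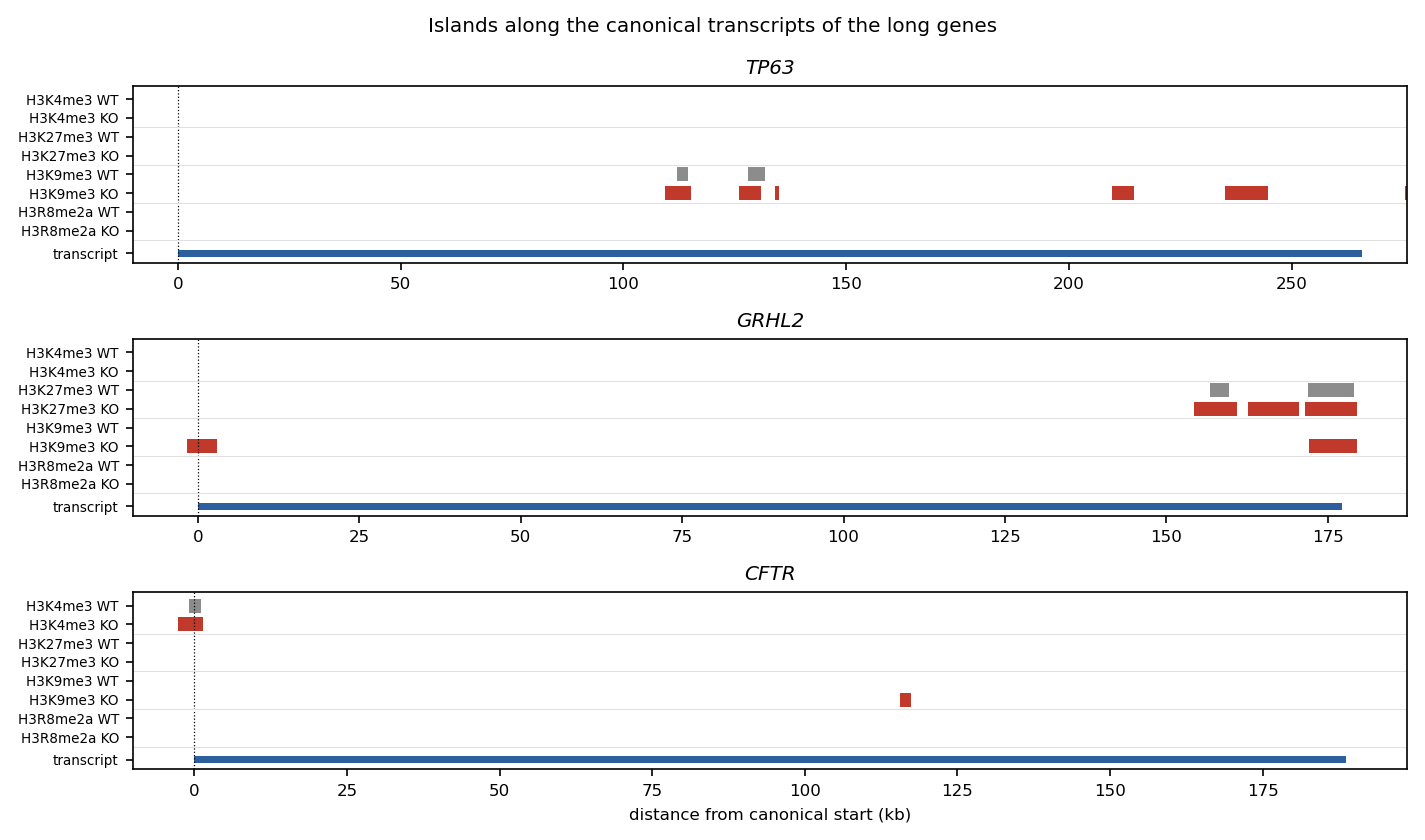
Islands of the 8 tracks along the canonical transcripts (blue) of the 3 long genes, by distance in kb from the canonical start, WT in grey and KO in red. Within the stretch drawn, TP63 had H3K9me3 in the body and not at its start. GRHL2 had it at both ends in KO, with H3K27me3 at the 3′ end, while CFTR kept H3K4me3 at its start. H3K9me3 further upstream of TP63, and in KO of CFTR, is not drawn.

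Of the 15 KO H3K9me3 islands on these genes, 13 had no base under WT H3K9me3. Of the same 15, 6 were intronic, 4 touched exons and 5 lay outside the canonical transcript. In the 100 kb on each side of the start the 9 genes had a median H3K4me3 length of 3 kb (WT) and 4.2 kb (KO), where coding genes had 12.4 and 14.3 kb, though ELF3 had 32.4 and 35.4 kb and EPCAM 11.4 and 18.6 kb. The medians of H3K27me3 (0 in both, beside 4.6 and 5.91 kb) and of H3R8me2a (0 in both, beside 3.6 and 5.8 kb) were lower as well. H3K9me3 in the same windows had a median of 0 in WT for the 9 and for all, and in KO of 6.8 kb for the 9 and 8.4 kb for all.

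The wider programme was described by 117 further genes in 7 lists chosen by role. Promoter H3K4me3 was on 59 of them in WT and 58 in KO (50.4% and 49.6%, beside 67.2% and 66.7% of coding genes). H3K27me3 was on 53 and 48 (45.3% and 41.0%, beside 20.5% and 21.5%). H3K9me3 was on 0 and 18 (0% and 15.4%, beside 2.67% and 11.0%). H3R8me2a was on 22 and 35 (18.8% and 29.9%, beside 28.4% and 36.3%). Over body and upstream, 46 gained H3K9me3 (39.3%, beside 27.6% of all coding genes) and 0 lost it. H3R8me2a was gained by 25 (21.4%, beside 20.0%) and lost by 5 (4.27%, beside 8.04%). H3K4me3 was gained by 5 (4.27%, beside 4.10%) and lost by 4 (3.42%, beside 2.04%). H3K27me3 was gained by 7 (5.98%, beside 6.49%) and lost by 6 (5.13%, beside 3.29%). The shares of gains of H3R8me2a, H3K4me3 and H3K27me3 were thus near those of all genes. With the scaling described for the 9 genes, gains and losses were 25 and 2 for H3K9me3 and 19 and 7 for H3R8me2a. For H3K4me3 they were 1 and 4, and for H3K27me3 4 and 8. The scaled shares of all coding genes, gains then losses, were 13.4% and 7.98% for H3K9me3 and 16.2% and 11.6% for H3R8me2a. They were 2.71% and 2.54% for H3K4me3 and 4.92% and 3.95% for H3K27me3. In the lists losses then outnumbered gains for H3K4me3 and H3K27me3, on counts of at most 8 genes and with no test.

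Secretory and goblet genes had H3K4me3 on 1 of 20 promoters in both genotypes (5%, beside 67.2% and 66.7% of coding genes). H3K27me3 was on 14 and 13 (70% and 65%, beside 20.5% and 21.5%), and in KO H3K9me3 was on 8 (40%, beside 11.0%). H3K9me3 was gained by 11 of these 20, beside 27.6% of coding genes, and by 7 with scaling (13.4%). FCGBP (0 to 22.8 kb) and PIGR, the polymeric immunoglobulin receptor (0 to 22.4 kb), gained the most. The mucin MUC5B (3.80 to 30.7 kb) and BPIFB1 (0 to 37.1 kb) gained H3R8me2a. LTF gained H3K27me3 (2.2 to 4.8 kb, no longer called with scaling) and VMO1 lost it (1.62 to 0 kb).

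Epithelial transcription factors had H3K4me3 on 18 of 22 promoters in both genotypes (81.8%, beside 67.2% and 66.7% of coding genes). H3K9me3 was gained by 9 (40.9%, beside 27.6%), and by 6 with scaling (beside 13.4%). The pioneer factor FOXA1 lost H3K4me3 over its region (9.44 to 3.2 kb). OVOL2 (0 to 23.6 kb) and TFCP2L1 (0 to 18.6 kb) gained H3K9me3, and TP73 (0 to 42.8 kb) and OVOL1 (0 to 15.2 kb) H3R8me2a. GRHL3 gained H3K27me3 (26.6 to 68.6 kb, not called with scaling) and NFIB lost it (9 to 0 kb).

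Junction and splicing genes had promoter H3K4me3 on 14 of 20 in WT and 15 in KO (70% and 75%, beside 67.2% and 66.7% of coding genes). Over the gene region it was gained by CDH3 (4 to 8.8 kb), CLDN4 (0 to 2.4 kb) and LSR (2.67 to 6.07 kb). The CLDN4 promoter had no H3K4me3 in either genotype. These 3 genes also gained H3K9me3 (0 to 16.6, 0 to 4.53 and 0 to 5.6 kb). MAL2 gained H3K27me3 (5 to 53.8 kb), as did CDH1, E-cadherin (2.2 to 4.8 kb). H3K9me3 was gained by 8 of the 20 (40%, beside 27.6%), and with scaling by 4 with 1 loss (beside 13.4% and 7.98%). The longest gains were at ST14 (0 to 29.6 kb) and PROM2 (3.46 to 21.9 kb). EPPK1 gained H3R8me2a (0 to 17.4 kb) and PROM2 lost it (12.8 to 0 kb). With scaling the H3K4me3 gains of CDH3 and LSR, the H3K27me3 gain of CDH1 and the H3K9me3 gain of PROM2 were no longer called. The H3K4me3 gain of CLDN4, the H3K27me3 gain of MAL2 and the H3K9me3 gain of ST14 were.

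Basal genes had promoter H3K4me3 on 5 of 12 in both genotypes (41.7%, beside 67.2% and 66.7% of coding genes), namely NGFR, ITGA6, ITGB4, SOX15 and DLK2. They lost H3K27me3 at the basal keratins KRT14 (6.35 to 0.747 kb) and KRT17 (3.71 to 0 kb). H3K9me3 was gained by 2 of the 12 (16.7%, beside 27.6%), KRT5 (0 to 1.11 kb) and KRT15 (0 to 1.38 kb), and by 0 with scaling. KRT15 also gained H3R8me2a (0 to 10.8 kb).

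Over the gene region 2 of 13 alveolar genes lost H3K4me3 (15.4%, beside 2.04% of coding genes). They were SFTPD (3.4 to 0 kb), a surfactant protein, and the phosphate transporter SLC34A2 (1.4 to 0 kb), which also lost H3K27me3 (2.2 to 0 kb). The SFTPD promoter had no H3K4me3 in either genotype. H3K9me3 was gained by 6 of 13 (46.2%, beside 27.6% of coding genes), and by 2 with scaling (beside 13.4%). SLC34A2 (0 to 8.8 kb) and LAMP3 (6.6 to 19.2 kb, not called with scaling) were among the 6. So was SFTA3 (0 to 4.2 kb), whose gain was the island shared with NKX2-1 and not a further one. HOPX gained H3K27me3 (0 to 2.2 kb), and ABCA3 (5.8 to 19.5 kb) and the surfactant gene SFTPB (0 to 11 kb) H3R8me2a.

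Among ciliated genes FOXJ1, the master regulator of motile cilia, lost H3K4me3 (5.79 to 0 kb) and H3K27me3 (7 to 0 kb), PIFO gained H3K4me3 (1 to 2 kb) and SNTN H3K27me3 (0 to 16.1 kb). H3K9me3 was gained by 4 of 15 (26.7%, near the 27.6% of coding genes), and by 1 with scaling (beside 13.4%). RFX2 (9.2 to 43.6 kb) and TEKT1 (0 to 5.4 kb) had the longest gains. RFX2 (0 to 17.4 kb) and DNAI1 (7.39 to 19.4 kb) gained H3R8me2a. In the ionocyte and ion transport list 6 of 15 genes gained H3K9me3 (40%, beside 27.6%). With scaling 5 gained it and 1 lost it (beside 13.4% and 7.98%). The longest gains were at KCNQ1, from 66.6 to 252.9 kb, and ANO1, from 5.4 to 65.8 kb. The same pair gained H3R8me2a, 39 to 87.8 kb and 0 to 29.8 kb. ATP6V0D2, a proton pump subunit, gained H3K4me3 (1.2 to 2.6 kb) and H3K27me3 (2.4 to 36.8 kb), with no H3K4me3 at its promoter in either genotype. With scaling the H3K9me3 gains of KCNQ1 and RFX2, the H3R8me2a gains of KCNQ1 and DNAI1 and the H3K4me3 gains of PIFO and ATP6V0D2 were no longer called.

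**Figure D5:**
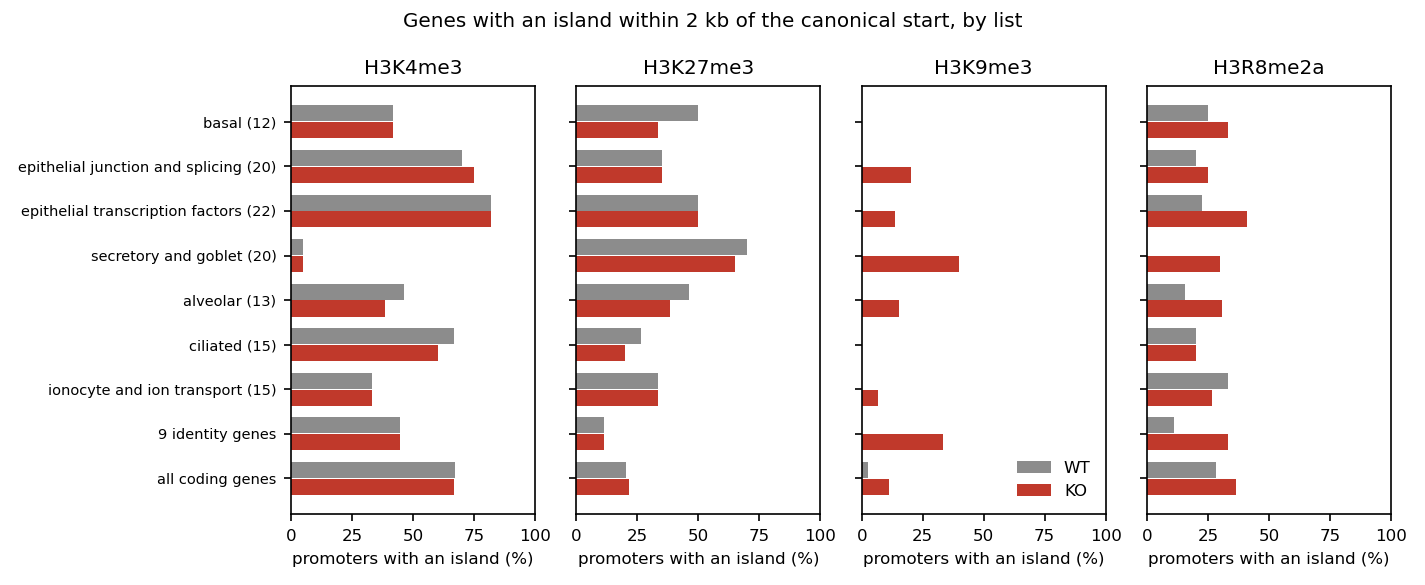
Percent of the genes of each role list (number of genes in brackets) with an island within 2 kb of the canonical start, WT in grey and KO in red, for each mark, beside the 9 genes and all coding genes. H3K9me3 was on 0 of the promoters of every role list in WT and on 8 of 20 secretory and goblet promoters in KO.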

How the data were processed

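The authors aligned ChIP-seq reads of BEAS-2B cells to hg19 with BWA (version not given in the sources used here), extended them to fragments, down-sampled libraries to equal depth and called islands with SICER 1.1. The deposited values are island coordinates of 8 tracks (141489 islands), with no height, depth or p-value, so no interval could be given. The submitters' processing notes name these tools.

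Islands were set on GENCODE 44 genes mapped to GRCh37, 1 per symbol, with Python 3.11.15 and numpy 2.4.6, and covered bases were recounted with bedtools 2.31.1. Promoter CpG and motifs came from GRCh37, and figures from matplotlib 3.10.9. The start was the 5′ end of the gene record, or the canonical transcript where named. Likeness was the Euclidean distance over the 8 covered shares. The calls were tested on simulated islands. The 9 genes, role lists and markers were chosen with earlier results of these data known. From the role lists, every H3K4me3 change and up to 2 largest differences per other mark are named. H4K20me3, RNA-seq and other cell lines were not analysed here. Promoter sequence of some of the genes is not reported here.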

Additional observations from a re-analysis of the deposited data

How the results depend on the processing

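Each island count was recomputed with other factors, windows, overlaps, the canonical transcript and libraries scaled to the same total length. Of the alternative counts, 129 stayed within 1.5 times the reported one and 9 did not. Many of the 129 were counts of 0 that stayed at 0, which says little about stability. A move from 3 to 4 or from 3 to 2 also counted as within it. With scaling the NKX2-1 difference in H3K4me3, which was no call, turned from 0.2 to -0.113 kb. H3K4me3 gains (0) became 2 (EPCAM and CFTR) at a factor of 1.5 and 1 (CFTR) over the canonical transcript. The H3K27me3 gain (1) became 0 at a factor of 3, 0 within 5 kb of the start and 0 with libraries scaled. H3K9me3 gains (5) became 3 within 5 kb of the start, and 4 with scaling, without TP63. Scaling over canonical transcripts, a pair of choices combined after seeing the data, left 2 gains of H3K9me3 (GRHL2 and EHF) and 0 of H3K27me3. KO H3K9me3 promoters (3) became 1 where islands had to cover at least 50% of the window. A window of 5 kb about the canonical start, chosen after seeing the data, left 4 H3K4me3 promoters, and the scaled counts of the role lists were added after seeing the data as well.

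Over all coding genes, scaling changed H3K9me3 from 5549 gains and 176 losses to 2703 and 1606, and H3K4me3 gains from 825 to 546. Within 5 kb of the start 2369 genes gained and 26 lost H3K9me3, and 863 gained H3K27me3 (1307 in the body and upstream). A factor of 1.5 gave 2286 gains and 791 losses of H3K4me3 (825 and 410 as reported), and a factor of 3 gave 365 gains. WT H3K9me3 promoters were 575, 909 with 5 kb windows and 249 at the stricter overlap, and KO ones 2238 and 1392. The causes were not tested. No paired analysis was possible because each condition had 1 library.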
